A study of Homo sapiens with 32 samples.

Results

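The regions described here are the blocks of 50 kb or more (50000 bp at the least) of uracil-enriched DNA in the merged region files of drug-treated HCT116 cells on chromosomes 1 to 22. They were chosen by their length alone in these data, so their number, length and signal by condition are given as descriptions without a test. The 4 merged files hold 390356 regions, and 5984 of these met the length minimum. HCT116, a human colorectal carcinoma line, lacks functional DNA mismatch repair (MMR). Its MMR proficient counterpart has received an extra chromosome 3, which restores the repair. The 4 drug conditions were 5FdUR_UGI and RTX_UGI in the deficient line and 5FdUR_UGI_MMR and RTX_UGI_MMR in the proficient variant, with 2 enriched libraries and 1 merged file each. Cells of 5FdUR conditions received 20 µM 5-fluoro-2′-deoxyuridine and cells of RTX conditions received 100 nM raltitrexed, both for 48 hours. All of these cells, and the non-treated NT_UGI and NT_UGI_MMR cells, expressed the uracil-DNA glycosylase inhibitor protein UGI with EGFP after retroviral transduction and sorting. WT cells were non-treated HCT116 without UGI, and the K562 leukaemia line gave 1 further non-treated library. In each library, DNA fragments that bound an inactive, FLAG-tagged form of uracil-DNA glycosylase were collected and sequenced, and their coverage was compared with the input DNA of the same cells. The replicates of a condition were separate biological samples, per the study's methods.

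Uracil enters DNA either when cytosine loses its amino group or when DNA polymerases use dUTP in place of dTTP opposite adenine. 5FdUR, after phosphorylation, and raltitrexed, a folate analogue, both inhibit thymidylate synthase, the enzyme that makes dTMP from dUMP, so the dUTP pool grows as dTTP runs short. Uracil-DNA glycosylase normally removes the base and starts base excision repair, and UGI, a phage protein, blocks that enzyme, so that uracil stays in the DNA long enough to be mapped. Per the study, 5FdUR also brings fluorouracil into DNA, and the method detects that base as well as uracil. The signal of the 5FdUR conditions can therefore hold both bases, and they were not told apart here. MMR acts on mismatches left behind replication forks and resynthesises the nicked strand.

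To show what kind of DNA the blocks are made of, 200 bases are printed from the centre of the longest block of each merged file and from the centre of the longest region of 2 non-treated files. All are from the GRCh38 reference, forward strand, in lower case with CpG dinucleotides in capitals. The windows are chr3:194160301-194160500 for 5FdUR_UGI, chr16:86644751-86644950 for 5FdUR_UGI_MMR, chr6:36832251-36832450 for RTX_UGI, chr16:56887501-56887700 for RTX_UGI_MMR, chr6:72251551-72251750 for NT_UGI and chr5:27931801-27932000 for NT_UGI_MMR.
5FdUR_UGI: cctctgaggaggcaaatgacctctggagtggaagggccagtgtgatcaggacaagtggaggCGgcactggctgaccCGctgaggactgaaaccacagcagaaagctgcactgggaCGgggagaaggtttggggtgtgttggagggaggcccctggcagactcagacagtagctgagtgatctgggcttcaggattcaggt
5FdUR_UGI_MMR: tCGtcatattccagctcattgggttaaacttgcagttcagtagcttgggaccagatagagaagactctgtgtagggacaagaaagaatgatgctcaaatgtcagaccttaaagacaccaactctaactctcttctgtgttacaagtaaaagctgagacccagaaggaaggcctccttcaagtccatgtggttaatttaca
RTX_UGI: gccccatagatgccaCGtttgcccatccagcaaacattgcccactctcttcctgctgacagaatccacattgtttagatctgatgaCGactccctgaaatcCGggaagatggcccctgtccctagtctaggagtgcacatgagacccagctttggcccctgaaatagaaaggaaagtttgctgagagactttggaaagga
RTX_UGI_MMR: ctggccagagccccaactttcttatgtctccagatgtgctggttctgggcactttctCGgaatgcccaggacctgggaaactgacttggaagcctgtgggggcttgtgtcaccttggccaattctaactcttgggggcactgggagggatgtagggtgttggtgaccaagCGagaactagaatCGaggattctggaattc
NT_UGI: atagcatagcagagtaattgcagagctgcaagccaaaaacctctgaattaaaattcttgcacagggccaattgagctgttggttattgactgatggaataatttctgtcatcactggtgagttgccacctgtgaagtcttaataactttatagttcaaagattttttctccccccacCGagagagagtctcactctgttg
NT_UGI_MMR: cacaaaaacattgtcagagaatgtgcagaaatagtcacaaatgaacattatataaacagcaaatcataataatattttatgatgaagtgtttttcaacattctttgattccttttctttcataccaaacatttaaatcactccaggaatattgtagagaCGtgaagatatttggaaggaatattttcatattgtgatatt
Of the 200 bases, the windows in the longest drug blocks held 82, 115, 99 and 92 A or T bases in the order printed, and the non-treated windows held 118 and 145. These windows illustrate composition only, and the composition of all blocks is given further on.

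Long blocks were found in drug-treated cells and hardly at all in non-treated cells. RTX_UGI had 2134 blocks covering 258 Mb, which was 50.6% of all bases in its regions. 5FdUR_UGI had 1705 blocks covering 172 Mb, or 33.8% of its region bases, and RTX_UGI_MMR had 1588 covering 141 Mb, or 27.7%. 5FdUR_UGI_MMR had the smallest number, 557 blocks covering 49.1 Mb, or 9.67% of its region bases. These numbers depend on short gaps between regions, since joining regions less than 5 kb apart gave 2093 blocks in 5FdUR_UGI_MMR, 2688 in 5FdUR_UGI, 2299 in RTX_UGI and 2707 in RTX_UGI_MMR. The merged files of WT, NT_UGI and NT_UGI_MMR had 1, 3 and 1 regions of this length, and the K562 library had 1. The authors chose the signal thresholds so that the replicates and the merged data of a condition had regions of similar total length. That total was 507 to 511 Mb in each of the 4 merged drug files. The non-treated merged files held 309.6 to 320 Mb.

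The replicate libraries kept this contrast between treated and non-treated cells, but differed among themselves within each condition. The 5FdUR_UGI libraries had 1571 and 655 regions of 50 kb or more in replicates 1 and 2, and the 5FdUR_UGI_MMR libraries had 383 and 90. The RTX_UGI libraries had 1512 and 2065, and the RTX_UGI_MMR libraries had 692 and 1285. Within either drug, both libraries of the MMR deficient line lay above both libraries of the proficient variant, whereas the ranges of the 2 drugs overlapped. The 6 non-treated HCT116 libraries had between 0 and 2 regions of this length, so the 8 drug-treated libraries and the non-treated libraries did not overlap. Thresholds ranged from 0.13 to 0.27 in log2 units in the drug-treated libraries and from 0.25 to 0.33 in the 6 non-treated HCT116 libraries. So most treated and non-treated libraries were cut at unlike thresholds, and the region files hold no read counts. How far depth or threshold contributed to these numbers was not tested.

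**Figure D1:**
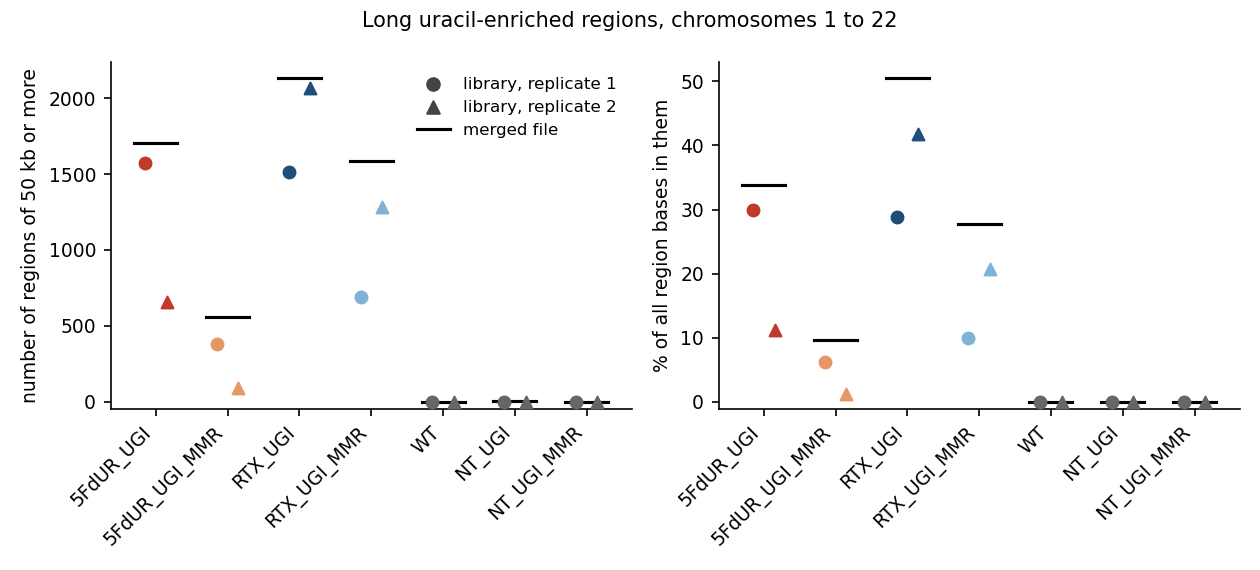
Number of regions of 50 kb or more on chromosomes 1 to 22 and the share of all region bases that they hold (%), for each group; points are the replicate libraries and horizontal lines are the merged files. The drug-treated libraries have 90 to 2065 such regions, and the non-treated libraries have 0 to 2.

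Longer blocks carried a higher signal in every drug condition. The signal was taken to be the mean log2 ratio of enriched over input coverage across a region, as read from the unlabelled last column of the files. The median log2 ratio of the blocks was 0.43 in 5FdUR_UGI, 0.32 in 5FdUR_UGI_MMR, 0.48 in RTX_UGI and 0.46 in RTX_UGI_MMR. In the same files the shorter regions had medians of 0.21, 0.16, 0.27 and 0.29, and fewer than 1% of them (0.795%, 0.470%, 0.326% and 0.934%) reached the block median. Within the blocks, Spearman's correlation of length with log2 ratio was 0.510, 0.451, 0.578 and 0.463 over 1705, 557, 2134 and 1588 blocks, which share libraries and a threshold and are not independent. Regions were cut from the smoothed signal by a threshold, so length and signal are tied by construction. These values are descriptions only. Block medians cannot be ranked between files as amounts of uracil, because the lowest ratio admitted was 0.18 in 5FdUR_UGI, 0.14 in 5FdUR_UGI_MMR, 0.25 in RTX_UGI and 0.26 in RTX_UGI_MMR.

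The longest class held fewer blocks than the shortest in each file and had a higher median signal. In RTX_UGI, 712 blocks of 50 to 75 kb had a median log2 ratio of 0.45, and 86 blocks of 300 kb or more had a median of 0.55. In 5FdUR_UGI, 725 blocks of 50 to 75 kb had a median of 0.40 and 22 blocks of 300 kb or more had 0.52. The class of 300 kb or more held 5 blocks in 5FdUR_UGI_MMR and 2 in RTX_UGI_MMR. GC content moved little with length in the RTX conditions, from 45.8% to 46.7% between the shortest and longest class of RTX_UGI, and was higher in the longest than in the shortest class of 5FdUR_UGI, at 49.4% against 47.2%. The length minimum cut through a continuous distribution. The 3 blocks just inside it were 50000 to 50100 bp long in the 4 files, with log2 ratios between 0.27 and 0.46, and the 3 regions just outside it were 49800 or 49900 bp long, with ratios between 0.30 and 0.51.

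Most blocks of a merged file were present in both of its replicates, but often in pieces. The median share of a block covered by regions of replicates 1 and 2 was 97.5% and 88.0% in 5FdUR_UGI, 96.0% and 84.0% in 5FdUR_UGI_MMR, 95.1% and 98.7% in RTX_UGI, and 93.3% and 97.8% in RTX_UGI_MMR. The replicates are part of the merged data, so this coverage is not an independent check. A region of 50 kb or more was found at the block in both replicates for 1164 of 2134 RTX_UGI blocks (54.5%), 452 of 1588 RTX_UGI_MMR blocks (28.5%), 381 of 1705 5FdUR_UGI blocks (22.3%) and 52 of 557 5FdUR_UGI_MMR blocks (9.34%). Neither replicate had one at 263, 380, 329 and 241 blocks in the same order. The median number of replicate regions that made up a 5FdUR_UGI block was 3 in replicate 1 and 7 in replicate 2. Blocks were also close to their neighbours, with a median distance of 500 or 600 bp to the nearest region and 64.9% to 73.1% of blocks less than 1 kb from it, whereas the authors smoothed coverage over 5000 bp before the regions were cut.

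Most loci had blocks of 1 drug alone, although the bases of the blocks overlapped. Joining blocks that overlapped by at least 1 bp in different files gave 3207 loci of 419.6 Mb in all, or 15.2% of the known autosomal bases, with a median length of 99200 bp. Blocks of RTX conditions alone made up 1441 loci (44.9%), blocks of 5FdUR conditions alone made up 1054 (32.9%), and 712 loci (22.2%) had blocks of both drugs. Counted in bases, 67.6 Mb lay in blocks of both drugs, which was 34.0% of the bases in 5FdUR blocks and 23.4% of the bases in RTX blocks. Of the known autosomal bases, 10.5% lay in RTX blocks and 7.20% in 5FdUR blocks. The most frequent patterns were RTX_UGI alone (754 loci), 5FdUR_UGI alone (596), both RTX conditions (555) and 5FdUR_UGI with both RTX conditions (438).

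The MMR status of the line went with different amounts of sharing under the 2 drugs. Of the bases in RTX_UGI_MMR blocks, 78.3% lay in RTX_UGI blocks, and 42.6% of the bases in RTX_UGI blocks lay in RTX_UGI_MMR blocks. For 5FdUR the same shares were 46.1% of 5FdUR_UGI_MMR block bases and 13.2% of 5FdUR_UGI block bases. These shares need 50 kb in both conditions. Merged 5FdUR_UGI regions of any length covered 77.4% of 5FdUR_UGI_MMR block bases, against 18.5% of the autosomes. Merged 5FdUR_UGI_MMR regions covered 54.7% of 5FdUR_UGI block bases, against 18.4%. For RTX the any-length shares were 94.6% of RTX_UGI_MMR and 85.5% of RTX_UGI block bases. Of 511 loci with a 5FdUR_UGI_MMR block, 53 (10.4%) also held an RTX block, whereas 711 of 1510 loci (47.1%) with a 5FdUR_UGI block did. Where a locus held blocks of 5FdUR_UGI and 5FdUR_UGI_MMR, the log2 ratio was higher in 5FdUR_UGI at 249 of 255 loci, with medians of 0.48 and 0.33. RTX_UGI was higher than RTX_UGI_MMR at 765 of 1014 loci, with medians of 0.50 and 0.47. The lowest ratio admitted differed between the files compared, at 0.18 and 0.14 for 5FdUR and 0.25 and 0.26 for RTX. These counts therefore do not rank amounts of uracil.

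Only 21 loci had blocks of all 4 conditions, and joining made this number larger than the shared sequence. At 8 of these 21 loci any base lay in blocks of all 4 conditions at the same time, in 14 stretches that add up to 359800 bp. One of them was chr10:114352701-114406000 over AFAP1L2, which encodes an actin filament-associated adaptor protein. No protein-coding gene lay wholly inside blocks of all 4 conditions.

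The covered share of the blocks in the other drug's libraries gave a view that does not depend on the 50 kb minimum in those libraries. Regions of any length in the RTX_UGI libraries covered 57.4% and 65.9% of the bases of 5FdUR_UGI blocks, against 18% and 19.7% of the whole autosomes. Of the bases of 5FdUR_UGI_MMR blocks, the same RTX_UGI libraries covered only 11.1% and 15.4%, and the RTX_UGI_MMR libraries covered 16.7% and 17.9% against 18.6% and 18.9% of the autosomes. In the other direction, the 5FdUR_UGI_MMR libraries covered 6.22% and 14.7% of the bases of RTX_UGI blocks, against 17.9% and 18.2% of the autosomes. Of the bases of RTX_UGI_MMR blocks, the 5FdUR_UGI_MMR libraries covered 20.5% in replicate 1, above the 17.9% of the autosomes. Replicate 2 covered 10.9%, below its 18.2%. So 5FdUR_UGI_MMR blocks and RTX_UGI blocks, which differ in drug and MMR status, were each covered less by the other condition than the genome was. This held in 2 of 2 libraries each way, while 5FdUR_UGI blocks were covered more by the RTX_UGI libraries.

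Regions of non-treated cells covered little of the loci. Regions of the 6 non-treated HCT116 libraries covered 1.51% ± 0.164 (SD, n = 6) of the locus bases, with a range of 1.31% to 1.78%, whereas they covered 11.3% to 11.6% of the autosomes. The K562 library covered 1.52% of the loci and 11.2% of the autosomes. By condition, the non-treated libraries covered 0.668% ± 0.152 (SD, n = 6) of 5FdUR_UGI blocks, 0.421% ± 0.134 of 5FdUR_UGI_MMR blocks, 1.67% ± 0.180 of RTX_UGI blocks and 2.54% ± 0.203 of RTX_UGI_MMR blocks. At 1200 loci (37.4%) no base lay in a region of any of the 6 libraries, and at 264 loci more than 10% of the bases did in at least 1 of them. No such count is given for other autosomal windows of like length, so these 2 counts are descriptions only. The few regions of 50 kb or more of the non-treated merged files and the K562 library overlapped no drug block. They had GC contents of 30.9% to 32.7% and included 64500 bp at chr6:72219401-72283900 over RIMS1, which encodes a presynaptic active zone protein, and a region over CSMD3, a large gene for a membrane protein with CUB and sushi domains, in both WT and NT_UGI.

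Across block edges the share covered by non-treated libraries was lower inside than outside for 5FdUR blocks, while RTX blocks had a narrow low just outside the edge. In the 10 kb just outside 5FdUR_UGI and 5FdUR_UGI_MMR blocks the non-treated libraries covered 2.94% ± 0.486 and 2.98% ± 0.561 of the bases (SD, n = 6), and 40 to 50 kb inside they covered 0.473% ± 0.0969 and 0.234% ± 0.213. Just outside RTX_UGI and RTX_UGI_MMR blocks they covered 1.26% ± 0.178 and 1.66% ± 0.216, and 40 to 50 kb inside they covered 1.46% ± 0.215 and 2.56% ± 0.400. In the next 10 kb outward from these RTX edges they covered 1.88% ± 0.209 and 2.20% ± 0.304. GC content had its own step at the same place. It was 44.0% and 44.9% in the 10 kb outside the 5FdUR blocks, below the next 10 kb outward (45.4% and 46.3%) and below the inside (48.1% and 49.5%). Outside the RTX blocks it was 47.9% and 46.5%, above the next 10 kb outward (46.6% and 45.3%) and above the inside (46.1% and 44.1%). The edges were set by a signal threshold, and the part of GC content in the measured signal was not tested.

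Base composition and gene content were not used to choose the blocks and were compared between the drugs over the 8 libraries. GC content was higher in every 5FdUR library than in any RTX library. Regions of 50 kb or more had GC contents of 47.0% and 51.6% in the 5FdUR_UGI libraries, 50.5% and 48.5% in the 5FdUR_UGI_MMR libraries, 46.1% and 46.6% in the RTX_UGI libraries, and 42.9% and 45.1% in the RTX_UGI_MMR libraries. The lowest 5FdUR library, 47.0%, lay just above the highest RTX library, 46.6%. The means were 49.4% ± 2.05 and 45.2% ± 1.63 (SD, n = 4 each), a difference of -4.18 percentage points for RTX minus 5FdUR (two-sided exact permutation test, p = 0.0286, Benjamini-Hochberg adjusted over 4 properties 0.0571). The autosomes have a GC content of 41.0%.

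The share of the blocks in protein-coding genes was higher in every RTX library than in any 5FdUR library. The share of block bases in such genes was 36.3% and 46.3% in the 5FdUR_UGI libraries, 46.9% and 39.8% in the 5FdUR_UGI_MMR libraries, 53.4% and 54.7% in the RTX_UGI libraries, and 54.6% and 54.9% in the RTX_UGI_MMR libraries. Again the 2 drugs did not overlap. The means were 42.4% ± 5.16 and 54.4% ± 0.691 (SD, n = 4 each), 12.1 percentage points higher for RTX (two-sided exact permutation test, p = 0.0286, adjusted 0.0571). The smallest p that the 70 ways of dividing 8 libraries allow is 0.0286, and neither difference passed the adjusted threshold of 0.05. In the autosomes 45.3% of bases lie in protein-coding genes. This difference was not particular to the blocks, since over regions of all lengths it was 15.7 percentage points. Regions under 50 kb had 58.0% to 59.5% of their bases in such genes in the RTX libraries, more than the RTX blocks. In the 5FdUR libraries they had 38.4% to 47.6%.

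The other 2 properties overlapped between the drugs. CpG density was 16.0 ± 2.28 per kb in 5FdUR libraries and 13.5 ± 1.92 per kb in RTX libraries (SD, n = 4 each, two-sided exact permutation test, p = 0.143, adjusted 0.143). Gene starts numbered 9.04 ± 3.7 and 14.3 ± 3.56 per Mb (SD, n = 4 each, two-sided exact permutation test, p = 0.143, adjusted 0.143), against 6.93 per Mb in the autosomes. In the merged files, gene starts per Mb were 12 in 5FdUR_UGI, 6.19 in 5FdUR_UGI_MMR, 16.8 in RTX_UGI and 10.5 in RTX_UGI_MMR blocks, so that under either drug the MMR proficient variant had the lower value. Regions of all lengths differed by only -0.65 percentage points in GC content between the drugs, so the GC difference went with block length.

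The blocks also differed from their own surroundings. Of 5FdUR_UGI blocks, 84.1% had a higher GC content than the 50 kb on either side, and of 5FdUR_UGI_MMR blocks 82.6% did, with median differences of 2.14 and 2.03 percentage points. Of RTX_UGI blocks 42.4% were higher than their flanks, and of RTX_UGI_MMR blocks 34.6%, with median differences of -0.53 and -1.03 points. So 5FdUR blocks sat on local rises of GC content, while RTX blocks were more often lower in GC than the sequence next to them.

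RTX_UGI blocks filled chromosome 17 most. They took up 26.9% of its known bases, followed by 20.6% of chromosome 22 and 16.0% of chromosome 1, and the smallest shares were 2.93% of chromosome 4 and 2.94% of chromosome 21. 5FdUR_UGI blocks were spread more evenly, from 10.1% of chromosome 17 to 3.43% of chromosome 4. RTX_UGI_MMR blocks took up 10.9% of chromosome 17 and 0.523% of chromosome 21. Chromosome 19, which is rich in genes, differed widely between conditions, with 12.1% in RTX_UGI blocks, 4.24% in 5FdUR_UGI, 0.932% in RTX_UGI_MMR and 0.136% in 5FdUR_UGI_MMR, which had 1 block there. Chromosome ends were another difference. The outer 5 Mb of the chromosomes hold 7.0% of the autosomal bases, and they held 20.3% of the bases in 5FdUR_UGI_MMR blocks, 14.2% in 5FdUR_UGI blocks, 8.63% in RTX_UGI blocks and 3.99% in RTX_UGI_MMR blocks. These are descriptions of 1 merged file for each condition and were not tested.

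Within chromosomes the blocks gathered in a limited number of 5 Mb windows. Of 545 windows, 142 held no 5FdUR_UGI block, 348 no 5FdUR_UGI_MMR block, 156 no RTX_UGI block and 198 no RTX_UGI_MMR block. The window from 100 to 105 Mb of chromosome 10 was the fullest for both RTX conditions, with 62.5% of its length in RTX_UGI blocks and 45.7% in RTX_UGI_MMR blocks. For 5FdUR_UGI the fullest window was 200 to 205 Mb of chromosome 1, with 39.7%, and the same window was the next fullest for RTX_UGI_MMR, with 38.2%. For 5FdUR_UGI_MMR it was the first 5 Mb of chromosome 12, with 27.2%.

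The longest of all 5984 blocks belonged to 5FdUR_UGI_MMR, the condition with the fewest. It spanned 774900 bp at chr16:86257401-87032300 and held the forkhead transcription factor genes FOXF1, FOXC2 and FOXL1 and the gene MTHFSD, with a log2 ratio of 0.42 and only 5.16% of its bases in protein-coding genes. Regions of the 5FdUR_UGI libraries covered 70.1% and 93.9% of it, and those of the 5FdUR_UGI_MMR libraries covered 98.9% and 96.3%. Regions of the RTX_UGI libraries covered 0% and 0.452%, those of RTX_UGI_MMR covered 0.852% and 0%, and the 6 non-treated libraries covered 0.0968% ± 0.237 (SD). The 4 libraries of 5FdUR were thus all high and the RTX and non-treated libraries all near 0 at this block.

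The other long 5FdUR_UGI_MMR blocks were also covered more in the 5FdUR libraries than in the RTX libraries, but less evenly. The block at chr15:69951201-70332600 (381400 bp) held TLE3, a transcriptional corepressor of the Groucho family, and was covered to 88.8%, 97.2%, 96.0% and 95.8% in the 5FdUR libraries and to 3.62%, 9.10%, 20.6% and 19.1% in the RTX libraries. The last 2 values, of RTX_UGI_MMR, stand beside 18.6% and 18.9% of the autosomes in the same libraries. The block at chr1:18076701-18421600 (344900 bp) held IGSF21, a gene for a membrane protein of the immunoglobulin superfamily. There the 5FdUR_UGI libraries covered 10.3% and 71.5%, the 5FdUR_UGI_MMR libraries covered 97.7% and 89.5%, and all 4 RTX libraries covered 0%. A further pair, of 385500 and 316500 bp, lay on chromosome 8, over TG (thyroglobulin), SLA and NDRG1 and over TSNARE1.

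The longest RTX_UGI block spanned 672900 bp at chr6:36495901-37168800, with a log2 ratio of 0.56 and 9 whole genes. Among them were STK38, which encodes a kinase of the NDR family, CPNE5, a copine gene, and CDKN1A, which encodes the cell cycle inhibitor p21. It was covered to 96.3% and 99.6% in the RTX_UGI libraries, 86.6% and 95.6% in the RTX_UGI_MMR libraries, 94.0% and 64.2% in the 5FdUR_UGI libraries, and 9.97% and 3.43% in the 5FdUR_UGI_MMR libraries. Only the 5FdUR_UGI_MMR libraries were low. The block at chr17:58371701-58896500 (524800 bp) overlapped PPM1E, TEX14, RNF43, which encodes a ubiquitin ligase that lowers Wnt receptor levels, and RAD51C, a gene of homologous recombination. Its covered share was 98.6% and 99.6% in RTX_UGI, 90.4% and 96.9% in RTX_UGI_MMR, 83.0% and 40.03% in 5FdUR_UGI and 5.64% and 3.51% in 5FdUR_UGI_MMR. The block at chr5:132519001-133034000 (515000 bp) held 14 whole genes, among them RAD50, a subunit of the MRN double-strand break complex, and AFF4, a scaffold of the super elongation complex, and it had a log2 ratio of 0.59. The remaining 2 of the 5 longest were chr20:50193101-50729200 over RIPOR3 and the phosphatase gene PTPN1, and chr17:67658101-68168100 over BPTF, which encodes a chromatin remodelling subunit, and KPNA2, an importin gene. In all 5, the 5FdUR_UGI_MMR libraries covered 0% to 9.97% of the bases.

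RTX_UGI_MMR blocks were shorter, and their 5 longest were also covered in RTX_UGI. The longest was chr16:56732501-57042700 (310200 bp) over NUP93, a nuclear pore gene, NLRC5, which encodes an activator of MHC class I genes, SLC12A3, CETP and HERPUD1. Its covered share was 96.0% and 99.03% in RTX_UGI_MMR, 94.4% and 99.9% in RTX_UGI, 77.2% and 47.0% in 5FdUR_UGI and 15.7% and 5.13% in 5FdUR_UGI_MMR. The others lay over CPD, GOSR1 and TMIGD1 on chromosome 17, over AOX1, SGO2 and BZW1 on chromosome 2, over UBASH3B and HSPA8, a constitutive chaperone gene, on chromosome 11, and over MAGI1 and SLC25A26 on chromosome 3. Their RTX_UGI coverage ranged from 75.5% to 98.5%.

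Several of the longest 5FdUR_UGI blocks were also covered in RTX libraries. The longest was chr3:193916301-194404500 (488200 bp), with HES1, a transcriptional repressor of the Notch pathway, LRRC15, CPN2, GP5 and part of ATP13A3. It was covered to 99.8% and 93.8% in 5FdUR_UGI, 76.2% and 56.7% in 5FdUR_UGI_MMR, 65.5% and 84.2% in RTX_UGI and 58.9% and 56.0% in RTX_UGI_MMR, so all 8 libraries had signal there. The blocks over CDH23 and PSAP at chr10:71414601-71884500, over LINGO1 at chr15:77491101-77929500 and over CACNA1S and KIF21B at chr1:200861901-201242300 were likewise covered to 64.1% or more in every RTX library. CDH23 encodes a cadherin of sensory hair cells, PSAP the precursor of the saposins, LINGO1 a neuronal membrane protein, CACNA1S a skeletal muscle calcium channel subunit and KIF21B a kinesin.

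Blocks without any region of the other drug were counted as well. No matching share is given for shorter regions or for autosomal windows of like length, so these counts are descriptions only. Of 557 5FdUR_UGI_MMR blocks, 216 (38.8%) had no base in a region of either merged RTX file, against 80 of 1705 5FdUR_UGI blocks (4.69%). All 5 of the longest such blocks belonged to 5FdUR_UGI_MMR and included, beside the FOXF1 and IGSF21 blocks, chr17:79346201-79637100 over RBFOX3 and chr18:37246801-37528700 inside CELF4, both genes for neuronal RNA-binding proteins, and a block without a protein-coding gene at chr22:27379701-27649100. At RBFOX3 the 5FdUR_UGI replicates differed widely, at 5.23% and 91.3% covered. Of RTX_UGI blocks, 130 of 2134 (6.09%) had no base in a 5FdUR region, and of RTX_UGI_MMR blocks 63 of 1588 (3.97%). The longest was chr12:65277601-65552300 over MSRB3, a methionine sulfoxide reductase gene, with a GC content of 38.3%, covered to 95.6% and 98.0% in RTX_UGI and 41.2% and 29.7% in RTX_UGI_MMR. The non-treated libraries covered 12.3% ± 2.89 (SD, n = 6) of this block and 15.5% ± 2.06 of the block at chr3:98987301-99138000, more than of the loci as a whole. At chr17:64507101-64662400, over SMURF2, a ubiquitin ligase gene, and DDX5, an RNA helicase gene, all 4 libraries of 5FdUR covered 0% and the RTX_UGI libraries covered 93.0% and 99.2%.

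Among the 21 loci of all 4 conditions, the one with the most block sequence was chr10:71414601-72076800, over CDH23, PSAP, CHST3 and SPOCK2. Its 5FdUR_UGI_MMR block ended at 71612800 and its first RTX_UGI block began at 71641601, so no base there lay in blocks of all 4 conditions. The locus at chr15:73610601-73956600 held NPTN, CD276, which encodes an immune checkpoint protein, and LOXL1, which encodes a lysyl oxidase. The log2 ratios of its blocks were 0.54 and 0.46 in 5FdUR_UGI, 0.30 in 5FdUR_UGI_MMR, 0.41, 0.43 and 0.41 in RTX_UGI and 0.41, 0.45 and 0.45 in RTX_UGI_MMR. Other loci of this kind were chr5:172502701-172875900 over ERGIC1, NEURL1B and DUSP1, a MAP kinase phosphatase gene, and chr17:45602101-45893700 over the stress hormone receptor gene CRHR1.

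RTX_UGI blocks enclosed the most genes. Of 19111 protein-coding genes, 3100 (16.2%) lay wholly inside an RTX_UGI block, 1248 (6.53%) inside a 5FdUR_UGI block, 913 (4.78%) inside an RTX_UGI_MMR block and 214 (1.12%) inside a 5FdUR_UGI_MMR block, and 4188 (21.9%) inside a block of any condition. Among the blocks, 8.48% in RTX_UGI, 14% in RTX_UGI_MMR, 18.7% in 5FdUR_UGI and 38.1% in 5FdUR_UGI_MMR touched no protein-coding gene. A block enclosed up to 24 genes, at chr6:31402501-31707300 of RTX_UGI in the major histocompatibility complex, with MICA, MICB, BAG6 and PRRC2A. Genes inside blocks had a median length of 15356 bp, against 27877 bp for all genes, since a long gene can lie wholly inside only a longer block. Read-through transcripts annotated as genes of their own are counted beside the genes they join.

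Genes of the pathways that the drugs and the repair of uracil touch lay inside RTX_UGI blocks at about the share of all genes. Of 24 genes of thymidylate, dUTP and folate metabolism, RTX_UGI blocks enclosed 4 and the other conditions 0. Among them were FPGS, which adds the polyglutamate tail that keeps folates and raltitrexed in the cell, TK1, the cytosolic thymidine kinase, and RRM2, a ribonucleotide reductase subunit. Of 22 genes of uracil excision and mismatch repair, RTX_UGI blocks enclosed 4 and RTX_UGI_MMR blocks 1. These were SMUG1 and TDG, which encode other uracil glycosylases, MBD4, a glycosylase of mismatched uracil and thymine, and APEX1, which cuts the abasic site. These 4 of 24 and 4 of 22 genes, 16.7% and 18.2%, stand beside 16.2% of all genes in RTX_UGI blocks, and the 0 in 5FdUR_UGI and 5FdUR_UGI_MMR blocks stand beside 6.53% and 1.12% of all genes. The TDG gene was covered to 82.3% and 100% in the RTX_UGI libraries, 74.0% and 54.1% in RTX_UGI_MMR, 38.5% and 0% in 5FdUR_UGI and 13.9% and 0% in 5FdUR_UGI_MMR. At MBD4 the RTX_UGI and RTX_UGI_MMR libraries all covered 100%, the 5FdUR_UGI libraries 17.2% and 0%, and the 5FdUR_UGI_MMR libraries 0%.

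Genes of the p53 response lay in blocks of both drugs, whereas colorectal cancer drivers lay mostly in 5FdUR_UGI blocks. Of 23 such drivers, 5FdUR_UGI blocks enclosed 4 (17.4%), 5FdUR_UGI_MMR blocks 1 (4.35%), RTX_UGI blocks 1 (4.35%) and RTX_UGI_MMR blocks 0. The shares of all genes were 6.53%, 1.12%, 16.2% and 4.78% in the same order. SOX9, a transcription factor gene of intestinal crypts, lay in 5FdUR_UGI and 5FdUR_UGI_MMR blocks, was covered to 100%, 100%, 100% and 76.4% in the 5FdUR libraries and had 0% in all RTX libraries. AXIN2, a Wnt feedback inhibitor, and IGF2 lay in 5FdUR_UGI blocks, and ARID1A, which encodes a chromatin remodelling subunit, lay in an RTX_UGI block. Of 24 p53 targets, 4, 0, 5 and 1 were enclosed in 5FdUR_UGI, 5FdUR_UGI_MMR, RTX_UGI and RTX_UGI_MMR, or 16.7%, 0%, 20.8% and 4.17%, against the same shares of all genes. BTG2, an antiproliferative gene, lay in blocks of 5FdUR_UGI and both RTX conditions, and CDKN1A and FDXR lay in blocks of 5FdUR_UGI and RTX_UGI.

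Of 24 intestinal epithelial genes, 6, 1, 6 and 2 were enclosed in the same order, 11 in any condition. These were 25%, 4.17%, 25% and 8.33% of the list, against 6.53%, 1.12%, 16.2% and 4.78% of all genes, and 45.8% against 21.9% for any condition. The homeobox gene CDX1 lay in 5FdUR_UGI, RTX_UGI and RTX_UGI_MMR blocks. CDX2, the other intestinal homeobox gene, lay in a 5FdUR_UGI block alone and was covered to 100%, 100%, 100% and 45.9% in the 5FdUR libraries, against 0%, 0%, 41.2% and 0% in the RTX libraries. ASCL2, an intestinal stem cell factor gene, was covered to 100%, 100%, 100% and 63.6% in the 5FdUR libraries and to 0% in all RTX libraries. VIL1, ELF3 and LGALS4 lay in RTX_UGI blocks, and TFF3, which encodes a goblet cell peptide, lay in a 5FdUR_UGI_MMR block. Whether these genes were expressed in the cells was not measured here.

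Gene families in clusters were counted in the same way, beside the shares of all genes of 6.53% in 5FdUR_UGI, 1.12% in 5FdUR_UGI_MMR, 16.2% in RTX_UGI, 4.78% in RTX_UGI_MMR and 21.9% in any condition. Of 39 HOX genes, 5FdUR_UGI blocks enclosed 12, and 9 of these, HOXC4 to HOXC13, shared 1 block of 148500 bp at chr12:53915201-54063700 with a log2 ratio of 0.42. RTX_UGI blocks enclosed 6 HOX genes, RTX_UGI_MMR blocks 1 and 5FdUR_UGI_MMR blocks 0. Of 55 keratin genes, 31 lay in a block of any condition, with 21 in RTX_UGI, 13 in 5FdUR_UGI, 5 in 5FdUR_UGI_MMR and 3 in RTX_UGI_MMR blocks. RTX_UGI blocks enclosed 20 of 80 genes of cytosolic ribosomal proteins (25%), and the other conditions 3, 1 and 3 in 5FdUR_UGI, 5FdUR_UGI_MMR and RTX_UGI_MMR. Of 53 clustered protocadherin genes and of 12 genes at common fragile sites none lay wholly inside a block, and of 12 type II cadherin genes only CDH24 did. Of 414 olfactory receptor genes 15 (3.62%), of 496 ZNF zinc finger genes 42 (8.47%) and of 69 replication-dependent histone genes 2 (2.90%) lay inside a block of any condition. Genes of a cluster share blocks, so these counts are not independent.

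The autosomes were also divided into 27609 bins of 100 kb to set the blocks beside the rest of the genome. In 3677 bins (13.3%) all 4 RTX libraries had a larger covered share than all 4 libraries of 5FdUR, in 3308 (12.0%) the reverse was found, and in 4206 (15.2%) all 8 drug-treated libraries were above all 6 non-treated libraries. Among 4318 bins with at least 50 kb of block sequence, the counts were 1504 (34.8%), 672 (15.6%) and 2144 (49.7%). The blocks were chosen on these same reads, so nothing is read from these shares. Without replicate 1 of each condition, the 1504 bins became 2767, where the rule compares fewer libraries and so can only keep or add bins.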

How the data were processed

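DNA of HCT116 and K562 cells was enriched with the inactive uracil-DNA glycosylase sensor and sequenced. Per the labels and the study's methods, the authors aligned reads with BWA 0.7.17-r1194 to GRCh38, processed them with SAMtools 1.9-50 and Picard, removed ambiguous and blacklisted reads, and computed with deepTools 3.2.1 the log2 ratio of enriched over input coverage in bins of 100 bp smoothed over 5000 bp. The deposited log2 value of each region was read as the mean over the region. Each file's lowest value equals a round threshold, which cannot tell a mean from another summary of the region. No read counts are part of the region files, the read numbers given by the study were not used here, and no interval for counting error could be given.

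22 region files were read (15 single libraries, 7 merged) with Python 3.11.15, NumPy 2.4.6, SciPy 1.17.1 and matplotlib 3.10.9. Groups came from the labels. Regions of 50000 bp or more on chromosomes 1 to 22 were kept from the 4 merged drug files, and overlapping blocks were joined into loci. Sequence, GC and CpG came from the GRCh38 reference, and genes from GENCODE release 44 (protein-coding). Named loci were the 5 longest blocks of each file, the 5 loci of all 4 conditions with the most block sequence, and for each drug the 5 longest blocks without a region of the other drug; listed genes were named where they lay wholly inside a block. The members, gene lists and rules were chosen with earlier results of these data known. Of the properties that the length rule did not use, 4 were compared by a two-sided exact permutation test over 8 libraries with Benjamini-Hochberg adjustment. Scripts were tested on simulated data. Alternatives covered the minimum length, joining of near regions, bin size, weighting, single replicates, each MMR background and a replicate block. Input libraries and mock pull-downs were not used here. A few of the loci and genes that these rules name are not reported here.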

Additional observations from a re-analysis of the deposited data

Results flagged for a closer look

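Chromosome X was outside the blocks described above and was looked at apart. The merged files held 13 regions of 50 kb or more on chromosome X in 5FdUR_UGI, 1 in 5FdUR_UGI_MMR, 17 in RTX_UGI and 4 in RTX_UGI_MMR. The longest were 157100, 53000, 121800 and 89600 bp in the same order. The merged files of WT, NT_UGI and NT_UGI_MMR and the K562 library held 0 there, with longest regions of 18200, 23200, 14300 and 26200 bp. These are listed because regions of this length were found in the drug-treated and not in the non-treated files, in data that no comparison used. Signal thresholds differed between the files. Among 19 groups of 4 or 6 library values examined for a library far from the others, 0 had a gap beyond Dixon's critical share of its range.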

How the results depend on the processing

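Of 74 recomputed values, 26 moved, by more than 1.5 times for a count or by more than the spread between replicates for a value without a test. With a minimum of 25 kb the files held 3875 (5FdUR_UGI), 2179 (5FdUR_UGI_MMR), 3882 (RTX_UGI) and 4143 (RTX_UGI_MMR) blocks, and with 100 kb 592, 122, 992 and 442. So RTX_UGI_MMR had the most blocks at 25 kb and RTX_UGI at 50 and 100 kb. Joining regions less than 1 kb apart gave 877 blocks in 5FdUR_UGI_MMR, and joining those less than 5 kb apart gave 2688 in 5FdUR_UGI, 2093 in 5FdUR_UGI_MMR, 2299 in RTX_UGI and 2707 in RTX_UGI_MMR, which put RTX_UGI below 5FdUR_UGI. Single replicates held 655 to 1571, 90 to 383, 1512 to 2065 and 692 to 1285 blocks in the order of the files above. Loci of all 4 conditions numbered 157 at 25 kb, 1 at 100 kb, 59 with regions less than 1 kb apart joined, and 0 to 7 in single replicates. The non-treated libraries covered 1.21% of the loci in the merged files. Bins with RTX above 5FdUR numbered 2634 with 50 kb bins, 808 with 200 kb bins and 1565 to 2767 without either replicate, and bins with 5FdUR above RTX numbered 1254, 295 and 759 to 961. Bins counted without a replicate met a rule over fewer libraries, which can only keep or add bins. The cause of the other shifts was not tested, beyond the construction of the shorter or longer minimum and bin.

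The sign of all 4 property differences held under every alternative run, with GC differences from -5.42 to -0.65 percentage points and gene share differences from 11.4 to 15.7 points, and no adjusted p passed 0.05. Over all regions, whatever their length, 3 of the 4 differences shrank, GC to -0.65 points, CpG density to -0.07 per kb and gene start density to 0.41 per Mb, against -4.18, -2.52 and 5.27 in the blocks. The gene share difference was larger over all regions, at 15.7 points against 12.1 in the blocks. With a replicate block, in which drugs were exchanged only within the same replicate number and MMR status, the differences were the same by construction (-4.18, -2.52, 12.1 and 5.27), with an adjusted p of 0.125 each by the exact test, the smallest this design allows. Replicate numbers did not pair the libraries. The differences between replicates 1 and 2 correlated between 5FdUR and RTX conditions at -0.28 to -0.18 over 27609 bins. With 2 libraries of each drug in 1 MMR background, the exact test cannot reach a p below 0.333. The number of blocks was not set against the depth of the libraries.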

Other observations

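A few loci carried signal in non-treated cells as well. The highest was chr1:84149701-84205600, an RTX_UGI locus over PRKACB, which encodes a catalytic subunit of protein kinase A, where regions of the 6 non-treated libraries covered 64.3% ± 14.2 (SD, n = 6) of the bases, with a range of 41.9% to 80.9%. A second RTX_UGI locus over the same gene, chr1:84081001-84140800, was covered to 33.1% ± 7.29. The RTX_UGI locus at chr4:30867401-30980600 over PCDH7, a protocadherin gene, was covered to 36.4% ± 6.32. The locus at chr12:10719401-10839200, over PRH1, YBX3 and several bitter taste receptor genes, had blocks of 5FdUR_UGI, RTX_UGI and RTX_UGI_MMR and was covered to 34.4% ± 3.88. All 4 of these loci held an RTX block, and 1 of them also held a 5FdUR block. The whole set of 3207 loci was covered to 1.51% ± 0.164 in the same libraries.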
